A study of Drosophila melanogaster with 4 samples.

Results

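Of the 1904 autosomal TADs called in BG3 cells, 205 kept both ends in Kc167 cells but were divided there by further borders. These subdivided TADs made up 10.8% of the autosomal BG3 TADs (95% Wilson interval 9.45 to 12.2). They were selected on border positions alone. Each end had to lie within 5 kb of a Kc167 border, and at least 1 more Kc167 border had to lie over 5 kb from both ends. The 205 TADs held 271 such inner borders, which cut them into 476 parts. Another 658 BG3 TADs matched at both ends and held no inner Kc167 border (kept whole below), and 1041 had 1 or both ends over the limit from any Kc167 border. With the lines exchanged, 121 of 2074 Kc167 TADs were divided in BG3, a share of 5.83% (4.9 to 6.93).

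The study compared 2 established Drosophila cell lines, both untreated. BG3 cells derive from the central nervous system of a male larva, and Kc167 cells come from female embryos and resemble blood cells in some of their markers. Contacts were measured by in situ Hi-C with the enzyme DpnII in 2 replicates per line, which were pooled before domains and loops were called, so each line is represented by 1 merged map and no spread between replicates enters any comparison below. The Kc167 map rests on more read pairs than the BG3 map. The methods also describe a Kc167 map thinned to the depth of BG3, and report similar distances between TAD borders with it. That map was not analysed here, and the part of depth in the subdivision was not tested.

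TADs are stretches of chromosome whose loci contact each other more often than loci outside. A border is called where contacts between the left and right flanks are depleted, and in flies many borders coincide with promoters of broadly expressed genes. Such promoters often carry short motifs bound by architectural proteins, among them M1BP, and the DRE element that is read by Dref and BEAF-32. Trl, the GAGA factor, binds GAGAG repeats.

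Sequence beside 5 inner borders shows how these motifs sat relative to gene starts. The windows reach at most 100 bp to each side of the called border and end where an annotated UTR begins. They were chosen after their values were seen, from inner borders with an M1BP or DRE match in the window. Letters are from the RefSeq copy of the release 6 assembly (dm6). Capitals mark TATCGATA, the DRE, which is its own reverse complement, or GGTCACAC, the M1BP motif, which reads GTGTGACC on the other strand.
pths, chr2L:21143120-21143228, plus strand: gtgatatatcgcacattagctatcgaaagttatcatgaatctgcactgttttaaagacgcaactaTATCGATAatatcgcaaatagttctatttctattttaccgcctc
Rab6, chr2L:12109117-12109312, plus strand: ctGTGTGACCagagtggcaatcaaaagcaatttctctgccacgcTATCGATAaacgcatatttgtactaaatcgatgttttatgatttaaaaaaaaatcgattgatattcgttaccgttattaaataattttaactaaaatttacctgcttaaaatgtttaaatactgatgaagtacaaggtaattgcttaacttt
Ire1, chr3R:19861292-19861397, plus strand: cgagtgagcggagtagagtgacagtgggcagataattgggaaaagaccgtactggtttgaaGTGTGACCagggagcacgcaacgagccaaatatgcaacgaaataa
Vps16A, chr3R:9266905-9267018, plus strand: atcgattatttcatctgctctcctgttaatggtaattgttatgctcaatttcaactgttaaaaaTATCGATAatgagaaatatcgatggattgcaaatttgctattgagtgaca
slmb, chr3R:21127486-21127572, plus strand: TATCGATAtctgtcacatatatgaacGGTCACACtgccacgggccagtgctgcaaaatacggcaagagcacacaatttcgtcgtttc

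At pths the border lay 10 bp from the gene's 5′ end, and the DRE was centred 31 bp from the border. At Rab6, which encodes a Golgi GTPase, the 5′ end lay 96 bp from the border, with an M1BP motif centred at 90 bp and a DRE at 48 bp. The border at Ire1, the sensor kinase of the unfolded protein response, was 6 bp from the 5′ end and 59 bp from an M1BP motif. At Vps16A, a subunit of the vesicle tethering complex of late endosomes, the border lay 20 bp from the 5′ end and 27 bp from a DRE. TrpRS, a tryptophanyl-tRNA synthetase, started 95 bp from the same border. The border near slmb, an F-box protein of ubiquitin ligases, lay in an exon of CG5793. It was 7 bp from the 5′ end of CG5793 and 95 bp from that of slmb. Its window held an M1BP motif at 65 bp and a DRE at 91 bp. None of these 5 borders was in the stringent Kc167 list.

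Most subdivided TADs were split once. In 156 of 205 (76.1%) a single inner border left 2 parts, in 33 (16.1%) there were 2 inner borders, in 15 (7.32%) there were 3, and 1 TAD (0.488%) held 4. The parts had a median width of 30.8 kb (quartiles 19.8 and 45.4, range 5.31 to 170). Subdivided TADs were wide, with a median of 72.4 kb (quartiles 53.5 and 102, range 19.8 to 382) beside 35.3 kb for TADs kept whole and 43.3 kb for all autosomal BG3 TADs. A TAD of 10 kb or less cannot meet the rule, and a wide TAD has more room for an inner border, so the widths are given with no test. Their median rose from 65.7 kb with 1 inner border to 94.6 kb with 2 and 130 kb with 3.

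**Figure D1:**
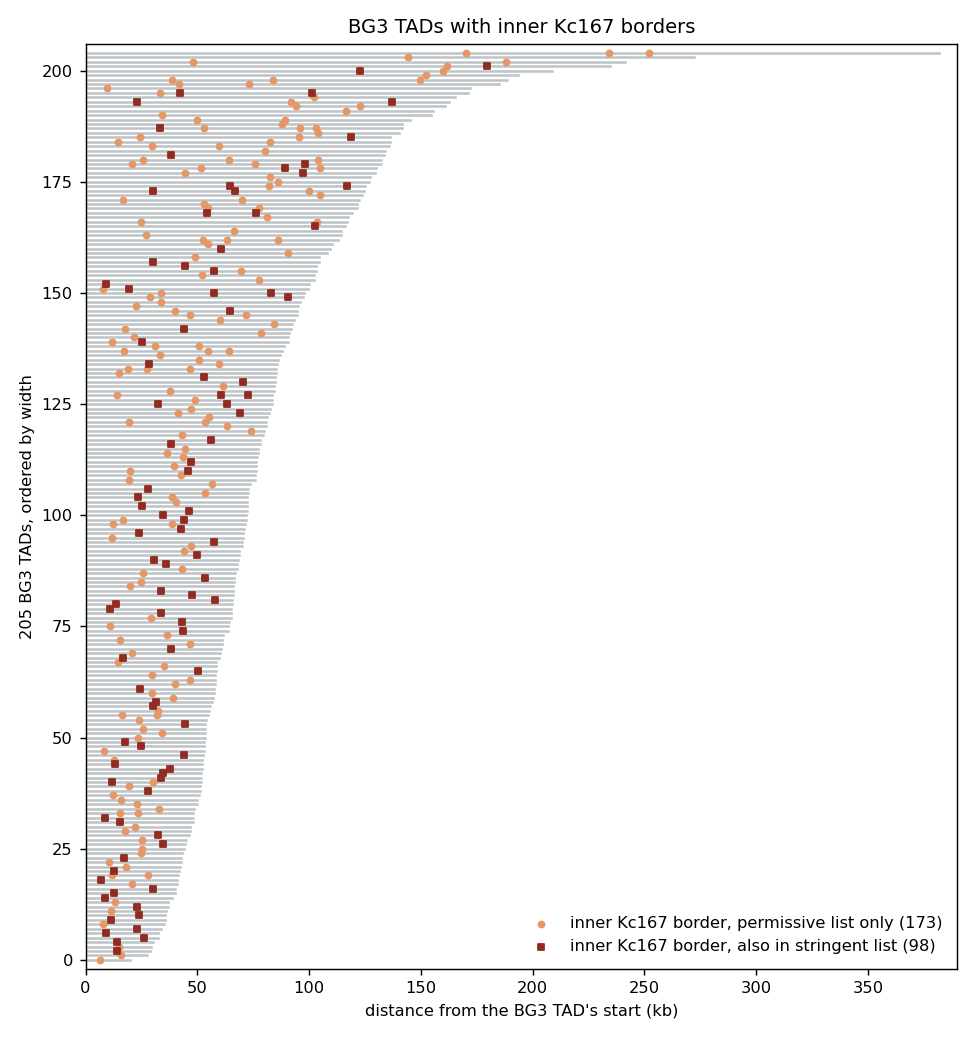
Each grey line is 1 of the 205 subdivided BG3 TADs, ordered by width, drawn from its start (0) to its end in kb. Circles are inner Kc167 borders of the permissive list only (173) and squares those also in the stringent list (98). Inner borders lie along the whole span, and the widest TAD (382 kb) holds 3.

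A single inner border could fall anywhere between the centre and the margin of the TAD. Among the 156 TADs with 2 parts, the wider part took a median of 64.4% of the width (quartiles 57.2 and 75, range 50.3 to 94). It took under 60% in 55 TADs and over 75% in 39. The narrower part was on the left in 69 and on the right in 87. Its median width was 21.6 kb, against 42.6 kb for the wider part. Over all 271 inner borders the distance to the nearest end was 24.8 kb at the median (quartiles 16.1 and 37.2), and 19 borders lay under 10 kb from an end.

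Subdivided TADs occurred on every autosomal arm. Their share was 10.3% on 2L (40 of 389, 95% interval 7.64 to 13.7), 12.3% on 2R (52 of 424), 7.85% on 3L (41 of 522, 5.84 to 10.5) and 12.3% on 3R (67 of 546). On the small chromosome 4 it was 21.7%, from only 5 of 23 TADs, with a wide interval of 9.66 to 41.9. The 5 TADs there included those of Ephrin and its receptor Eph, and of ey, the eye selector gene. Next to each other lay 62 of the 205, in 27 runs of adjoining TADs, of which the longest held 4. The others had no subdivided neighbour.

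The outer ends were close in both maps, as the rule required of these TADs and of those kept whole. Both ends were called at the same base in 42 TADs (20.5%), 1 end in 89 and no end in 74. For TADs kept whole, both ends were at the same base in 144 of 658 (21.9%). The offset between a BG3 end and its Kc167 border was 459 bp at the median (quartiles 0 and 1530) and 4908 bp at most. Just inside the limit of 5000 bp were the TADs at chr3R:7645878-7718012, with a larger offset of 4908 bp, and chr3L:21334954-21385813, with 4881 bp. Just outside were the adjoining TADs chr3L:2165137-2249233 and chr3L:2249234-2373335, whose shared end lay 5017 bp from a Kc167 border. The inner border nearest to the limit was 5828 bp from an end, on 3R.

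Inner borders scored higher than the borders at the ends. The TAD separation score of a border is low where few contacts cross it. The median score was 0.0399 for inner borders (quartiles -0.0995 and 0.2), -0.0623 for the 375 Kc167 borders matched to the ends of subdivided TADs, and 0.00429 for the 554 other Kc167 borders over 5 kb from every BG3 border. The stringent list, called with a higher threshold for the depth of the minimum, held 98 of 271 inner borders (36.2%, 30.7 to 42), beside 52% of all autosomal Kc167 borders. It held 57.3% of the end borders and 42.8% of the other distant borders. In 90 of the 205 TADs at least 1 inner border was stringent. An inner border scored higher than both outer borders of its TAD in 128 cases (47.2%) and lower than both in 46 (17%). The stringent call rests on the drop around the minimum and is not set by the score alone, since the border near stan scored 0.726 and was stringent. Scores and calls come from the map that placed the borders, so these values are descriptions.

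Most inner borders lay at gene starts. A protein-coding 5′ end stood within 1 kb of 146 of 271 inner borders (53.9%, 47.9 to 59.7), near the 55.6% of all 2079 autosomal Kc167 borders. Inside the subdivided TADs, over 5 kb from the ends, 19.8% of all bases are that close to a 5′ end. The share at inner borders was 12 percentage points below that at the end borders, 65.9% (247 of 375), with a 95% interval of -19.5 to -4.34 points for the difference (two-sided Fisher's exact test, adjusted p = 0.00539). It was 16 points above that at the other distant borders, 37.9% (210 of 554), with an interval of 8.74 to 23 points and an odds ratio of 1.91 (exact test, adjusted p = 0.000189). In all, 118 of the 205 TADs had an inner border at a gene start.

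**Figure D2:**
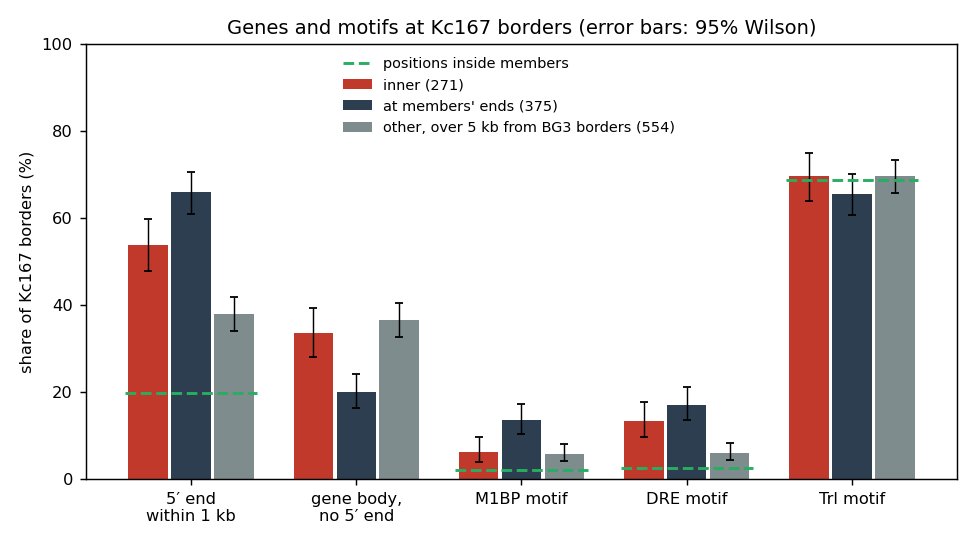
Share of Kc167 borders (percent, error bars 95% Wilson intervals) with a protein-coding 5′ end within 1 kb, in a gene body with no such 5′ end, or with a motif within 500 bp. Inner borders (271) are red, borders at the ends of subdivided TADs (375) dark blue and other borders over 5 kb from BG3 borders (554) grey. The dashed line, drawn for 4 of the 5 measures, is the share of bases inside subdivided TADs, 19.8% for 5′ ends.

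The order of the 3 groups was the same on 4 arms. Inner, end and other distant borders had a start within 1 kb in 57.9%, 65.3% and 43.5% on 2L. On 2R the shares were 60%, 70.2% and 41.1%. They were 52.9%, 55.7% and 29.6% on 3L and 48.4%, 70.7% and 39.1% on 3R. Chromosome 4 gave 2 of 5, 3 of 7 and 1 of 2 borders, too few to order.

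Local gene density differed between the groups and moved with this result. Within 25 kb of an inner border there were 8 protein-coding 5′ ends at the median (quartiles 3 and 12), beside 7 for end borders and 4 (quartiles 1 and 9) for the other distant borders. Borders were therefore split, after the data were seen, by the number of 5′ ends between 1 and 25 kb away. With 5 or more, a start stood within 1 kb of 71.9% of inner borders (128 of 178), 76.7% of end borders and 63.2% of other distant borders. With under 5 the shares were 19.4% (18 of 93), 45.4% (59 of 130) and 17.6% (54 of 307). The difference from the other distant borders did not pass the test in either stratum, at 8.75 points (exact test, adjusted p = 0.204) and 1.77 points (exact test, adjusted p = 0.792). The difference from the end borders passed in the gene-poor stratum, where inner borders were 26 points lower (exact test, adjusted p = 0.000287), but not in the gene-rich one at -4.82 points (exact test, adjusted p = 0.665).

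**Figure D3:**
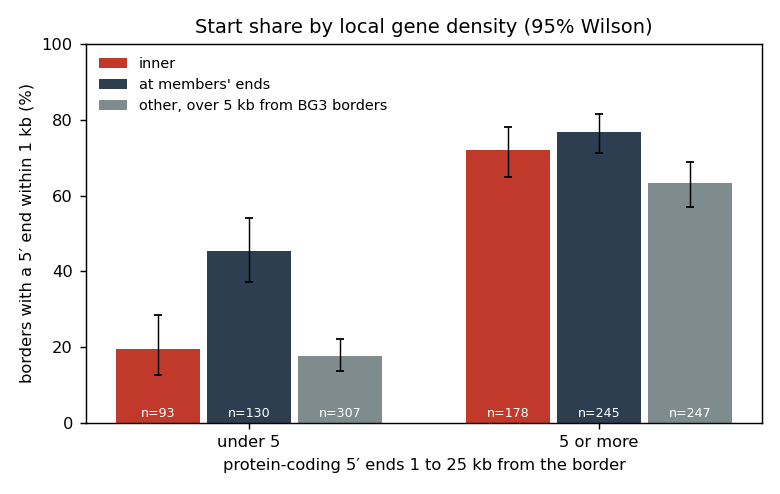
Share of borders with a protein-coding 5′ end within 1 kb (percent, error bars 95% Wilson intervals) by the number of 5′ ends 1 to 25 kb away. In the gene-poor stratum inner borders (19.4%) sit beside the other distant borders (17.6%) and below the end borders (45.4%).

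Genes beside inner borders tended to point away from them. Of the 209 5′ ends within 1 kb, 76 lay on the left on the minus strand and 60 on the right on the plus strand, so that 136 (65.1%, 58.4 to 71.2) were transcribed away from the border. The remaining 37 and 36 pointed across it. At the end borders the share was 69% (252 of 365) and at the other distant borders 61.1% (184 of 301), and the 3 intervals overlapped. The peak of 5′ ends was within 500 bp of the border on either side.

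**Figure D4:**
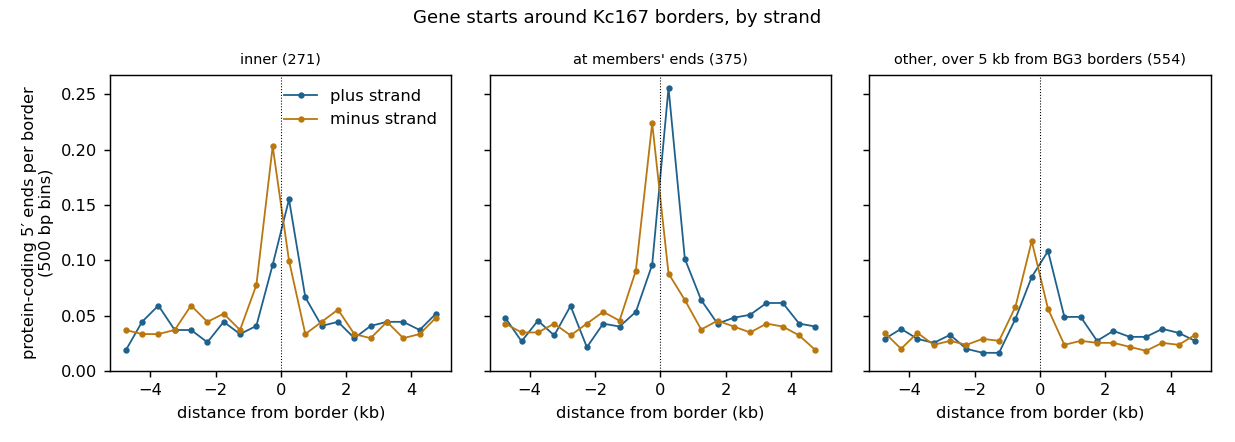
Protein-coding 5′ ends per border in bins of 500 bp, from 5 kb left to 5 kb right of Kc167 borders, for the plus and minus strand. At inner borders the minus strand peaks just left of the border, at 0.203 per border, and the plus strand just right of it, at 0.155.

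Inner borders were more often inside gene bodies, away from starts, than end borders were. In all, 91 inner borders (33.6%) were inside a protein-coding gene body with no 5′ end within 1 kb. Over all 2079 autosomal Kc167 borders the share was 27.2%. The share at inner borders was 13.6 points above the 20% of end borders (interval 6.68 to 20.5, Fisher's exact test, adjusted p = 0.000609). Against the other distant borders, at 36.5%, the difference was -2.88 points (exact test, adjusted p = 0.549). These shares are of all borders in a group, so they move with the share at starts. With borders at starts left out, gene bodies held 91 of 125 inner, 75 of 128 end and 202 of 344 other distant borders. These counts were not tested. The longest gene over each of the 91 borders had a median length of 38.9 kb, beside 32.9 kb for the end borders, 57.7 kb for the other distant borders and 2.1 kb for all autosomal protein-coding genes. The genes included Con, an adhesion protein of 142 kb, fru, a sex determination transcription factor gene of 131 kb, and cpo, an RNA-binding protein gene of 99.1 kb with 2 inner borders. The last 34 inner borders (12.5%) were between genes with no start within 1 kb. By annotated feature, 95 of all 271 inner borders (35.1%) fell in exons, 83 (30.6%) in introns and 93 (34.3%) between genes. For all autosomal Kc167 borders the shares were 29.4%, 29.8% and 40.8%. A protein-coding 3′ end stood within 1 kb of 87 of all 271 inner borders (32.1%, 26.8 to 37.9), beside 33.6% of end borders, 22.4% of the other distant borders and 19.3% of the bases inside subdivided TADs. Among the borders with no start within 1 kb it stood beside 16 of 125 inner borders (12.8%, 8.03 to 19.8), 26.6% of end borders and 11.3% of the other distant borders, and beside 12% of the bases inside the TADs that lie away from starts. The 3′ ends were looked at after the other values were seen and were not tested.

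Of the 3 motifs, the DRE passed the test against the other distant borders and M1BP against the end borders. A DRE stood within 500 bp of 36 inner borders (13.3%), against 6.14% of the other distant borders, a difference of 7.15 points (interval 2.92 to 12, Fisher's exact test, adjusted p = 0.00271). Over all 2079 autosomal Kc167 borders the DRE share was 12%, near that of inner borders. A DRE lies that close to 2.59% of the bases inside subdivided TADs. End borders had one in 17.1% of cases, and the difference of -3.78 points missed the threshold (exact test, adjusted p = 0.376). The M1BP motif stood beside 17 inner borders (6.27%) and 9.81% of all autosomal Kc167 borders. Of the bases inside subdivided TADs, 2.17% have one that close. End borders had it in 13.6% of cases, a difference of -7.33 points (exact test, adjusted p = 0.00539), and the other distant borders in 5.78%, a difference of 0.497 points (exact test, adjusted p = 0.84). GAGAG or its reverse complement was found beside 69.7% of inner borders, 65.6% of end borders and 68.8% of the bases inside the TADs, so it is nearly everywhere at this length. Among borders with a start within 1 kb, the differences in DRE from the other distant borders and in M1BP from the end borders were 10.5 and -9.56 points, with an adjusted p of 0.0789 for each by the exact test. In both strata of gene density the DRE difference from the other distant borders was positive and missed the threshold, at 7.29 points (exact test, adjusted p = 0.151) and 2.44 points (exact test, adjusted p = 0.55). A match of letters is a description and does not show that a protein is bound.

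In TADs with 2 parts, the narrower one was more often the richer in gene starts. Subdivided TADs held 2421 protein-coding 5′ ends, or 1.4 per 10 kb, beside 1.32 per 10 kb in TADs kept whole. In the 156 TADs with 2 parts, the narrower part had a median of 1.55 starts per 10 kb and the wider part 1.05. The narrower part was the denser in 89 TADs and the wider in 64. There was no start in the narrower part of 20 TADs and in the wider part of 10. Many borders lie at starts, and a start at a part's edge adds more per kb to a narrower part. How far this sets the difference was not tested.

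Widths of parts given above run to the matched Kc167 borders, and those of the single TADs described next to the BG3 ends. The TAD with the most parts spanned chr3R:23890223-24031798, and its parts differed in their density of gene starts. The part before the first inner border, of 33.2 kb, held the starts of TfIIA-S, tbrd-1, sba and CG31141. This border, at 23923430, lay 130 bp from the 5′ end of the nearest of CG31141, sba and Ndc1, a nuclear pore membrane protein gene. It scored -0.246 and was stringent. It opened a part of 19.8 kb with 10 starts, among them Rpt2, a proteasome subunit. The next border, 101 bp from the 5′ end of Gdh, glutamate dehydrogenase, led into 43.1 kb with 4 starts. The last borders, 287 bp from the nearer start of CG13603 and CG5902 and 153 bp from that of Rab7, a late endosome GTPase, and Epp, bounded 6.88 kb with 4 starts. All of these starts were within 360 bp of either border. The last part had 2 starts in 38.6 kb. All 4 borders were at gene starts. The difference between parts was not tested.

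The TAD at chr3R:10851261-11022380 had 4 parts, which also differed in their density of starts. Its first part had 13 starts in 33.5 kb and its second 3 in 8.75 kb. The parts beyond the stringent border 32 bp from the 5′ end of CG6621 had 2 starts in 58.8 kb and 1, that of side-VI, in 70 kb. The widest TAD, chr3R:17151153-17532926, held beat-IIa and beat-IIb, of the beaten path family of axon guidance receptors, and Dscam3, a neuronal immunoglobulin adhesion protein gene. Its inner borders set off a part of 17.8 kb with Brf, a subunit of the RNA polymerase III initiation factor, sds22, a phosphatase regulator, CREG and Sur-8, a scaffold of Ras signalling. The parts on either side had 2 starts in 63.9 kb and 21 in 130 kb.

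**Figure D5:**
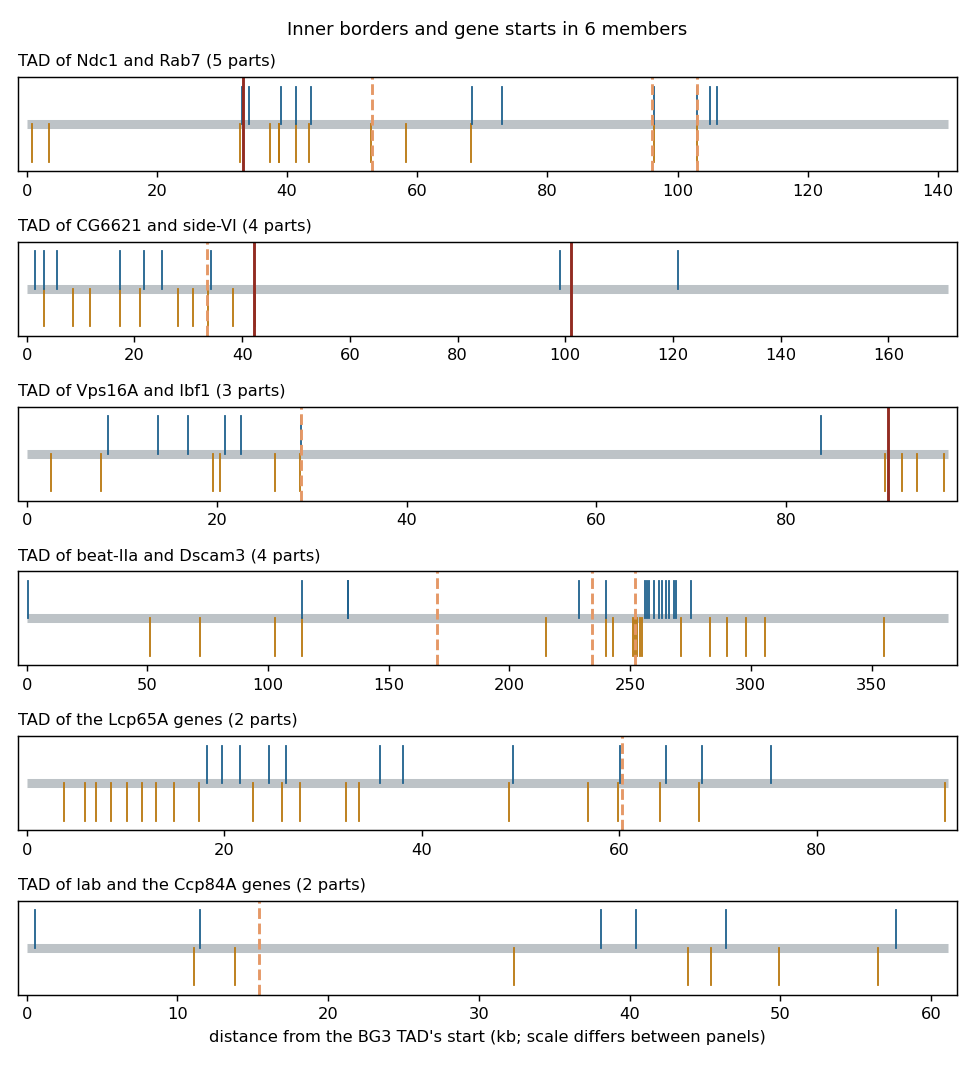
Inner Kc167 borders (vertical lines, solid dark red where stringent and dashed orange otherwise) and protein-coding 5′ ends (short ticks, up and blue for the plus strand, down and brown for the minus strand) in 6 subdivided TADs. The grey bar is the TAD, from its BG3 start (0) in kb. In the top panel 4 inner borders stand at gene starts, and the TAD of beat-IIa and Dscam3 is 382 kb wide.

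Others of the widest TADs with 4 parts had inner borders far from starts. Narrower ones could differ. All 3 inner borders had a start within 1 kb in chr2L:490265-603064, chr2L:5982149-6070136, chr2L:10201055-10333148 and chr3R:17532927-17616299. In the TAD at chr3R:27358714-27547305 none of the 3 inner borders had a start within 1 kb. The first, with a score of 0.101, lay in the body of side, a guidance protein of motor axons, and the other borders scored 0.0543 and 0.156. Its last part held the taste receptor genes Gr98b, Gr98c and Gr98d. In the TAD at chr2L:870731-1006986 the part of 71.2 kb held Lsp1beta, a larval serum protein, GluRIIC, a glutamate receptor subunit of muscle, and Tmtc2. The following parts of 23.2 kb and 17.5 kb held no protein-coding start. In chr2R:10648296-10810947 the first inner border was stringent although its score was high, 0.726. It lay 1802 bp from the 5′ end of stan, a cadherin of planar polarity. A second border 180 bp from that of Mat1, a subunit of the CDK-activating kinase, led into 45.4 kb with no start.

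The lowest score of a stringent inner border, -0.398, was at 29239608 on 3R, where CG11951 starts 885 bp away. It separated 11.4 kb with Usp1, a deubiquitinase gene, from 80.4 kb that held stg, the Cdc25 phosphatase that drives mitosis, and Cnx99A, a calnexin. The next scored -0.339, 657 bp from the 5′ end of smash, and -0.264, 1648 bp from that of CG9297. In what follows, the distance in brackets is to the 5′ end of the first gene named. On 3R, borders beside Archease and Jhbp16 (313 bp, -0.241) and beside Lnk, an adaptor of insulin signalling (372 bp, -0.235), followed. The only one of the 8 lowest-scoring stringent inner borders outside 3R was on 2R, 108 bp from the start of lig, with a score of -0.243. Where both outer ends were at the same base in the maps, the inner border with the lowest score after that of CG11951 was beside ZnT86D, RpS25 and CG4820 (600 bp, -0.368). Others of this kind lay beside CG8839 and ana3 (112 bp, -0.288), CG8679 and Atg18b, an autophagy gene (357 bp, -0.208), and eEF1alpha2, a translation elongation factor (259 bp, -0.148). None of these was stringent.

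Few genes of the 12 lists examined started at inner borders. Over all 11749 autosomal protein-coding genes, 304 (2.59%) started no more than 2 kb from one. The highest share was in the list of cytoplasmic ribosomal genes, with 4 of 78 (5.13%). These were RpS27A at 203 bp, RpL40 at 250 bp, RpL7-like at 517 bp and RpS25 at 1148 bp. Whether RpL7-like encodes a ribosomal protein was not checked. Ion channel and synapse genes had 2 of 49, namely Snap24, a SNARE protein gene at 307 bp, and Shal, a voltage-gated potassium channel at 1164 bp. Single genes came from axon guidance (fra, the netrin receptor, at 29 bp from a stringent border), blood cell genes (PPO2, a prophenoloxidase of crystal cells, at 121 bp), segmentation (mirr, an Iroquois homeobox gene, at 846 bp), signalling (sax, a BMP type I receptor, at 1079 bp) and cuticle proteins (Cpr47Eg, at 226 bp). The lists of dpr and DIP, neural fate, ecdysone response, architectural protein and chemoreceptor genes had none of 27, 41, 30, 30 and 155.

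Several axon guidance genes held an inner border. Of 58 axon guidance and adhesion genes, 8 (13.8%) had an inner border in the gene body, fra among them, whose border is the one at its start, beside 180 of all 11749 protein-coding genes (1.53%). Their lengths move with this, since the list has a median of 33 kb and all genes 2.1 kb, and the part of length was not tested. In robo3, a Slit receptor gene of 40.2 kb, the border was 29.7 kb from the 5′ end. In side it was 39.9 kb along 62.4 kb and in Con, where it was stringent, 21.3 kb along 142 kb. Drl-2, beat-Vc and Ephrin had it at 19.9%, 40.2% and 75.2% of the body. Among genes of the other lists, the border came after 98.6% of srp, the GATA factor of blood cells, 98.2% of lab, a Hox gene, and 92.9% of Nlg1, a neuroligin, but after 5.09% of mirr and 47.2% of Eip63E. The ETS factor gene pnt held 2 inner borders, at 63.3% and 95.5% of its body. InR, the insulin receptor gene of 49.1 kb, held 2 stringent inner borders, of adjoining TADs, at 55.5% and 97.7% of its body. These genes were picked out of the lists after their values were seen.

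Tandem cuticle gene clusters lay inside subdivided TADs and were not cut by the inner borders. Of 114 cuticle protein genes, 51 (44.7%) started in a subdivided TAD, beside 20.6% of all protein-coding genes. The 51 lay in only 11 TADs, so they are not independent. In the 5 TADs with more than 1 cuticle gene, all of them started in the same part, in each TAD. On 3L, 18 Lcp65A, Cpr65A and Acp65A genes lay in the 60.3 kb left part of a TAD, and LanA, a laminin chain of basement membranes, in its right part. On 3R the Ccp84A genes shared a part with lab. On 2R, 8 Cpr49A genes shared the middle part of 78.4 kb, and 7 Cpr47E genes lay to the left of the border beside Cpr47Eg. Of the 3 TADs with several axon guidance genes, 2 had them in more than 1 part. These were the TAD of beat-Va, beat-Vb and beat-Vc and that of beat-IIa, beat-IIb and Dscam3. Of the 5 TADs with several chemoreceptor genes, 1 was cut, with Gr98a in the part before that of Gr98b, Gr98c and Gr98d. No TAD had genes of any other list in more than 1 part, but few held 2 or more genes of such a list. There were 3 such TADs for segmentation, 2 for blood cell and 1 each for neural fate, architectural and ribosomal genes. Of these, gcm and gcm2 counted in both the neural fate and the blood cell list. The dpr and DIP, ion channel, ecdysone and signalling lists had no such TAD and could not be cut. On these small counts, staying uncut was not particular to cuticle genes. Neighbouring related regulators started in the same part, such as gcm and gcm2, gsb and gsb-n, and ara, caup and mirr, whose inner border lay 0.846 kb inside mirr.

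Loops called in BG3 crossed some of the positions where Kc167 had a border. Of 771 autosomal BG3 loops, 119 lay inside subdivided TADs, and 26 of them (21.8%) spanned an inner border, in 25 TADs. In Kc167, 147 of 1126 loops lay inside the same TADs and 21 (14.3%) spanned an inner border, in 19 TADs. In each map, 3 of the spanning loops had a partner in the other. Spanning loops were longer than those within 1 part, with medians of 35 and 20 kb in BG3 and 48 and 18 kb in Kc167, as a loop that stays in a part cannot exceed it. Loops per Mb were 6.89 in BG3 and 8.51 in Kc167 inside subdivided TADs, and 7.8 and 8.31 inside TADs kept whole. Loops and borders were called on the same maps, so no test was made.

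The BG3 loop with the highest ratio that spanned inner borders joined positions 42 kb apart in the TAD of Drl-2, with 13 contacts observed against 0.421 expected. The next, also 42 kb long, ended at a bin with COX5A and glo, with 28 contacts against 2.16. A loop of 28 kb from CG12934 spanned the inner border near stan, with 21 contacts against 2.91. In Kc167 the highest ratio was at a loop of 24 kb between beta-Man and CG31516, with 28 contacts against 4.4, whose right anchor lay at the inner border. A loop of 142 kb spanned 2 inner borders of the widest TAD, with 26 contacts against 7.97. One loop of 48 kb over the border at 23861973 on 3R was called in both lines, with 35 contacts against 6.31 in BG3 and 47 against 11.5 in Kc167.

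In BG3, 17 loops had an anchor within 1 kb of an inner border, at 17 of the 271 inner borders (6.27%, 3.95 to 9.82), and in Kc167 23 loops did so at 20 (7.38%, 4.83 to 11.1). In both maps some of these loops also spanned the border at their anchor, so they are counted among the spanning loops too. End borders had an anchor in 8.27% of cases in BG3 and 9.6% in Kc167, and the other distant borders in 6.86% and 8.66%. With anchors extended by 2 kb instead of 1 kb, 40 Kc167 loops reached an inner border, at 13.3% of them. The border between Vps16A and TrpRS, shown above with its DRE, anchored a loop of 28 kb in both lines. It had 21 contacts against 1.17 expected in BG3 and 37 against 3.11 in Kc167. A loop of 28 kb joined the border beside JhI-21 and RpL7-like to prd, the paired homeobox gene, in both lines, with 24 contacts against 4.71 in BG3 and 59 against 11.5 in Kc167. In BG3 alone, the border beside CG42382 anchored a loop of 26 kb with 61 contacts against 4.95. In Kc167 alone, the border beside PPO2 anchored a loop to a position 5872 kb away on the same arm, with 33 contacts observed against 0.198 expected. Every other loop that spanned an inner border or had an anchor at one was 188 kb long or less. A ratio over so low an expected value is unstable, and the origin of this contact was not tested.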

How the data were processed

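In situ Hi-C of 2 replicates each of BG3 and Kc167 cells was aligned to dm6 by the authors with BWA 0.7.15-r1140 and Juicer 1.7.6, per the submitters' processing notes. They called TADs on the merged replicates with HiCExplorer at restriction fragment resolution, at a permissive and a stringent threshold. The deposited TAD lists give each TAD's TAD separation score, which belongs to the border at its start. Loops were called with HiCCUPS at 2 kb, and the deposited loop lists give observed contact counts, the expected signal of the surrounding contacts, of which the donut was used, and q-values.

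TAD positions were compared between lines on the autosomes. Inner borders were set against end borders and other distant borders for 5 measures with two-sided Fisher's exact tests, adjusted by Benjamini-Hochberg over the 10 comparisons. Adjoining borders share chromatin and are not independent. Wilson intervals at 95% cover counting error only. Genes were from Ensembl 115, checked against the release 6 assembly, in which 261 of 271 inner borders lie at a DpnII fragment midpoint to within 3 bp. Motifs were searched on both strands within 500 bp. A loop spans a border that lies between its anchors' midpoints. A loop has a partner if both anchors lie within 10 kb of those of a loop in the other map.

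Named are the 6 TADs with most inner borders, the 8 stringent inner borders with the lowest scores, list genes within 2 kb (at most 4 per list), loops by their ratio of observed to expected contacts (at most 6 per map) and the lowest-scoring inner borders of TADs with both ends at the same base. Among TADs with equal numbers of inner borders, the widest were named. The members and the 12 lists were chosen with earlier results of these data known. Windows with GAGAG alone are not shown. A border that the naming rule selected is not reported here. The scripts were tested on simulated data. Python 3.11.15, NumPy 2.4.6, SciPy 1.17.1 and Matplotlib 3.10.9 were used.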

Additional observations from a re-analysis of the deposited data

How the results depend on the processing

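The count of 205 subdivided TADs was 90 with inner borders from the stringent Kc167 list, 119 with stringent lists for both lines and 121 with the lines exchanged. The remaining settings gave 137 to 246. The lower start share than at end borders was -7.1 points at 500 bp (exact test, adjusted p = 0.157) and -4.82 among gene-rich borders. The higher start share than at other distant borders was 13 points among stringent borders (exact test, adjusted p = 0.0846), and 8.75 and 1.77 points in the strata of gene density. The share in gene bodies against the other distant borders turned to 3.69 points among stringent borders (exact test, adjusted p = 0.637). For M1BP, the difference from end borders was -9.56 points among borders with a start (exact test, adjusted p = 0.0789). That from the other distant borders turned to -0.0926 points at 250 bp, -1.27 at 1000 bp and -3.54 among borders with a start. For the DRE, the difference from the other distant borders was 3.58 points at 250 bp (exact test, adjusted p = 0.0538), 10.5 among borders with a start, 4.05 among stringent borders, and 7.29 and 2.44 in the strata. For GAGAG, the difference from end borders reached 10.7 points at 250 bp (exact test, adjusted p = 0.0196) and turned to -0.768 among borders with a start. That from the other distant borders turned to -3.61 among stringent borders. Of 52 alternatives with a test, 34 kept direction and side of the threshold. Of 18 without one, 14 were classed as unchanged, but by a wide margin. They include the 137 TADs at a limit of 2000 bp. They also include BG3 loops at inner borders, which rose from 17 to 24 with anchors extended by 2 kb. With that extension the Kc167 loops at inner borders rose from 23 to 40. The cause of the shifts was not tested, although fewer borders enter the stringent, start-only and stratified comparisons. The strata were chosen after seeing the data. No paired analysis was possible because the replicates were merged into 1 list per line, and no replicate could be left out.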
